A study of Bos taurus with 2 samples.

Results

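The FGF receptors FGFR1, FGFR2 and FGFR3 and the genes that FGF signalling induces as feedback, SPRY1, SPRY2, SPRY4, DUSP6, ETV4 and ETV5, were described across the cell clusters of day 25 bovine chimeric embryos. They were taken from a named list of 10 FGF pathway genes, of which 9 were matched by symbol among the 17846 genes of the count table. FGF13 was not analysed here. The receptors numbered 3 and the feedback targets 6.

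Fibroblast growth factors bind receptor tyrosine kinases on the cell surface together with heparan sulfate, and the receptors act through RAS, RAF and MEK on the kinase ERK. Active ERK raises transcription of the ETS factors ETV4 and ETV5 and of inhibitors that limit the same signal: the Sprouty proteins (SPRY1, SPRY2, SPRY4), which act between receptor and RAF, and DUSP6, a phosphatase that removes phosphate from ERK in the cytoplasm. In the vertebrate neural tube FGF signals are known to keep progenitors from differentiating and to help pattern the tissue, and the level of DUSP6 and ETV transcripts is widely used as a readout of FGF activity.

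The study had 1 group of 2 single-cell libraries, replicate 1 and replicate 2, made from flushed day 25 cattle embryos that carried incorporated bovine embryonic stem cells (bESC). All cells came from such chimeras, no unmanipulated embryo was included, and cells of stem cell and host origin were not separated here. The number of embryos behind each library and the gate used to sort the cells are not given in the sources used here, so the libraries may or may not share an embryo. Replicate 1 held 11182089 UMI (unique molecular identifiers, a count of captured transcripts) in 1973 barcodes and replicate 2 held 15427708 UMI in 2464 barcodes, and 6 barcode sequences occurred in both.

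After filters 4152 cells fell into 24 clusters, and the 18 clusters with at least 20 cells in each library were compared. Each is called by its marker-based name and a leading gene. Of these, 9 were neural progenitor-like (SOX2, SOX1, NES, RFX4) and are led by TEX14, TEX11, KIF18B, PF4, KIF26B, GABRG3, UBE2C, HES5 and COL25A1. The others were 2 floor plate-like clusters (SHH, NTN1, CORIN; led by ADAMTS16 and SHH), a roof plate-like cluster (RSPO1, RSPO2, LMX1A), 2 neuron-like clusters (ELAVL3, ELAVL4, DCX; led by INSM1 and EBF2), a noradrenergic sympathetic neuron-like cluster (DBH, TH, HAND2) and a mesenchyme-like cluster (COL1A1, COL3A1, LUM), whose leading genes also included the plasma protein genes APOA1 and RBP4. Clusters led by SERPINA1 and ANKRD1 stayed unnamed. The SERPINA1 cluster had markers of 4 or more cell types, and its makeup differed between libraries. Its hepatic or yolk sac endoderm markers summed to 399 CPM in replicate 1 and 5394 CPM in replicate 2. Its cardiomyocyte markers summed to 1361 and 85.8 CPM. Values for this cluster therefore describe a mixed group and not 1 cell type. Although the labels give the whole embryo as tissue, endothelium and macrophage markers summed to at most 129 and 63.9 CPM in any of the 18 clusters. Ribosomal protein genes gave 1.91% to 6.39% of UMI in 8 clusters (TEX14, TEX11, KIF18B, PF4, KIF26B, GABRG3, ADAMTS16 and EBF2, called ribosome-poor below) and 8.60% to 29.8% in the other 10. The ribosome-poor clusters were also shallower, with median depths of 3046.5 to 6267 UMI per cell against 7305.5 to 11773. Levels are given as CPM, a gene's counts scaled to a common total of UMI for each cluster and library, and are compared only for the same gene between clusters. They leave out the TMM factors, a further scaling used in the fits. These factors ran from 0.61 in the mesenchyme-like cluster to 1.34 in the TEX14 progenitors (both in replicate 2). Orders by CPM and by fitted difference can therefore differ.

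FGFR1, a receptor found widely in early neural tissue, was measured at its highest in ribosome-poor progenitor-like clusters and at its lowest in neurons. The KIF18B cluster, which is led by mitotic genes, had 280.2 and 291 CPM of FGFR1 in replicates 1 and 2 (285 ± 7.38, SD, n = 2). The TEX11 cluster had 249 and 293 CPM, the KIF26B cluster 297 and 238 CPM and the TEX14 cluster 254 and 269 CPM. These 4 clusters overlapped in their libraries and could not be ordered. At the other end the INSM1 neurons had 71.3 and 48.8 CPM of FGFR1 and the noradrenergic neurons 60.7 and 75.4 CPM, which overlapped with each other and lay below every other cluster. Against the mean of the other clusters FGFR1 was lower in the INSM1 neurons (log2 fold change -1.41, SE 0.14, adjusted p 1.3e-13, edgeR quasi-likelihood test with Benjamini-Hochberg adjustment over all genes), the noradrenergic neurons (-1.16, adjusted p 2.4e-08) and the EBF2 neurons (-0.71, adjusted p 8.1e-04).

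The high FGFR1 levels went with the low ribosomal share. The median over the 8 ribosome-poor clusters was 249 CPM of FGFR1 and over the other 10 it was 131 CPM. With ribosomal protein genes taken out of the totals these medians were 258 and 167 CPM. All 6 clusters called higher for FGFR1 were ribosome-poor progenitors. When each was set against clusters of like ribosomal share only the KIF26B cluster remained higher (0.50, adjusted p 2.9e-04, and 0.79 against all clusters). The only other ribosome-poor clusters were the ADAMTS16 floor plate and the EBF2 neurons, so progenitors were set mostly against each other. A call lost there, like the medians above, therefore cannot separate ribosomal share from cell type. For the TEX14 cluster the difference was then 0.061 (adjusted p 0.69) and for the KIF18B cluster 0.28 (adjusted p 0.058). The lower FGFR1 of the 3 neuron clusters kept its call against clusters of like share, with log2 fold changes from -1.20 to -0.94.

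FGFR2, a receptor with strong roles in epithelia and dorsal tissues, had another order. The roof plate-like cluster, the dorsal midline of the neural tube, had 258 and 223 CPM of FGFR2 (241 ± 24.6, SD, n = 2), the KIF26B cluster 229.7 and 201 CPM, and the mesenchyme-like cluster 207 and 126 CPM. The noradrenergic neurons had 7.36 and 12.3 CPM from 4 and 7 UMI, below all other clusters in both libraries, and the INSM1 neurons came next with 32.8 and 39.2 CPM. FGFR2 was thus nearly missing from sympathetic neuron-like cells and plentiful in the dorsal midline, whereas the 13 clusters from the GABRG3 progenitors down to the SHH floor plate formed a graded run. Over all 18 clusters 14 of the 17 neighbouring pairs overlapped in FGFR2. The log2 fold changes of FGFR2 against the mean of the other clusters were 1.55 in the roof plate (SE 0.15, adjusted p 4.3e-14), 1.58 in the mesenchyme-like cluster (adjusted p 6.3e-13), 1.29 in the KIF26B cluster (adjusted p 3.0e-12), -1.30 in the INSM1 neurons (adjusted p 6.1e-08) and -3.26 in the noradrenergic neurons (SE 0.32, adjusted p 8.6e-14). All 9 clusters called for FGFR2 kept call and direction against clusters of like ribosomal share.

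FGFR3, a receptor that marks ventricular zone progenitors and later glia, was spread over progenitors and both floor plate-like clusters and was low in every neuron cluster. The GABRG3 cluster had 76.7 and 103 CPM of FGFR3, the KIF26B cluster 85.8 and 87.4 CPM, the ADAMTS16 floor plate 65.0 and 95.8 CPM and the SHH floor plate 65.9 and 82.6 CPM. The EBF2 neurons had 7.92 and 23.4 CPM, the INSM1 neurons 7.92 and 14.4 CPM and the noradrenergic neurons 5.52 and 12.3 CPM, on 3 to 18 UMI per library. Neuron clusters overlapped with each other but not with any other cluster. FGFR3 was higher in 6 clusters: both floor plate-like ones (log2 fold changes 1.12, adjusted p 3.5e-08, for SHH and 0.89, adjusted p 0.0018, for ADAMTS16), the KIF26B (1.01), GABRG3 (1.00) and UBE2C (0.78) progenitors and the ANKRD1 cluster (0.81). It was lower in the noradrenergic, INSM1 and EBF2 neurons (-2.30, -1.93 and -1.56) and in the TEX14 progenitors (-0.89). All 10 called clusters kept their call against clusters of like ribosomal share.

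The makeup of the receptor UMI therefore differed between clusters. FGFR1 gave 82.5% and 75.4% of the summed UMI of the 3 receptors in the noradrenergic neurons and 69.5% and 70.2% in the TEX14 progenitors. FGFR2 gave 58.3% and 51.8% in the roof plate and 60.8% and 49.0% in the mesenchyme-like cluster. FGFR3 reached its largest shares in the SHH floor plate, with 27.9% and 31.9%. The share in the noradrenergic cells rests on 40 and 57 receptor UMI. These are shares of captured 3′ ends, and transcripts of different genes may be captured with different efficiency. FGFR4, the remaining kinase receptor of the family, had 5 UMI in the 18 clusters together.

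**Figure D1:**
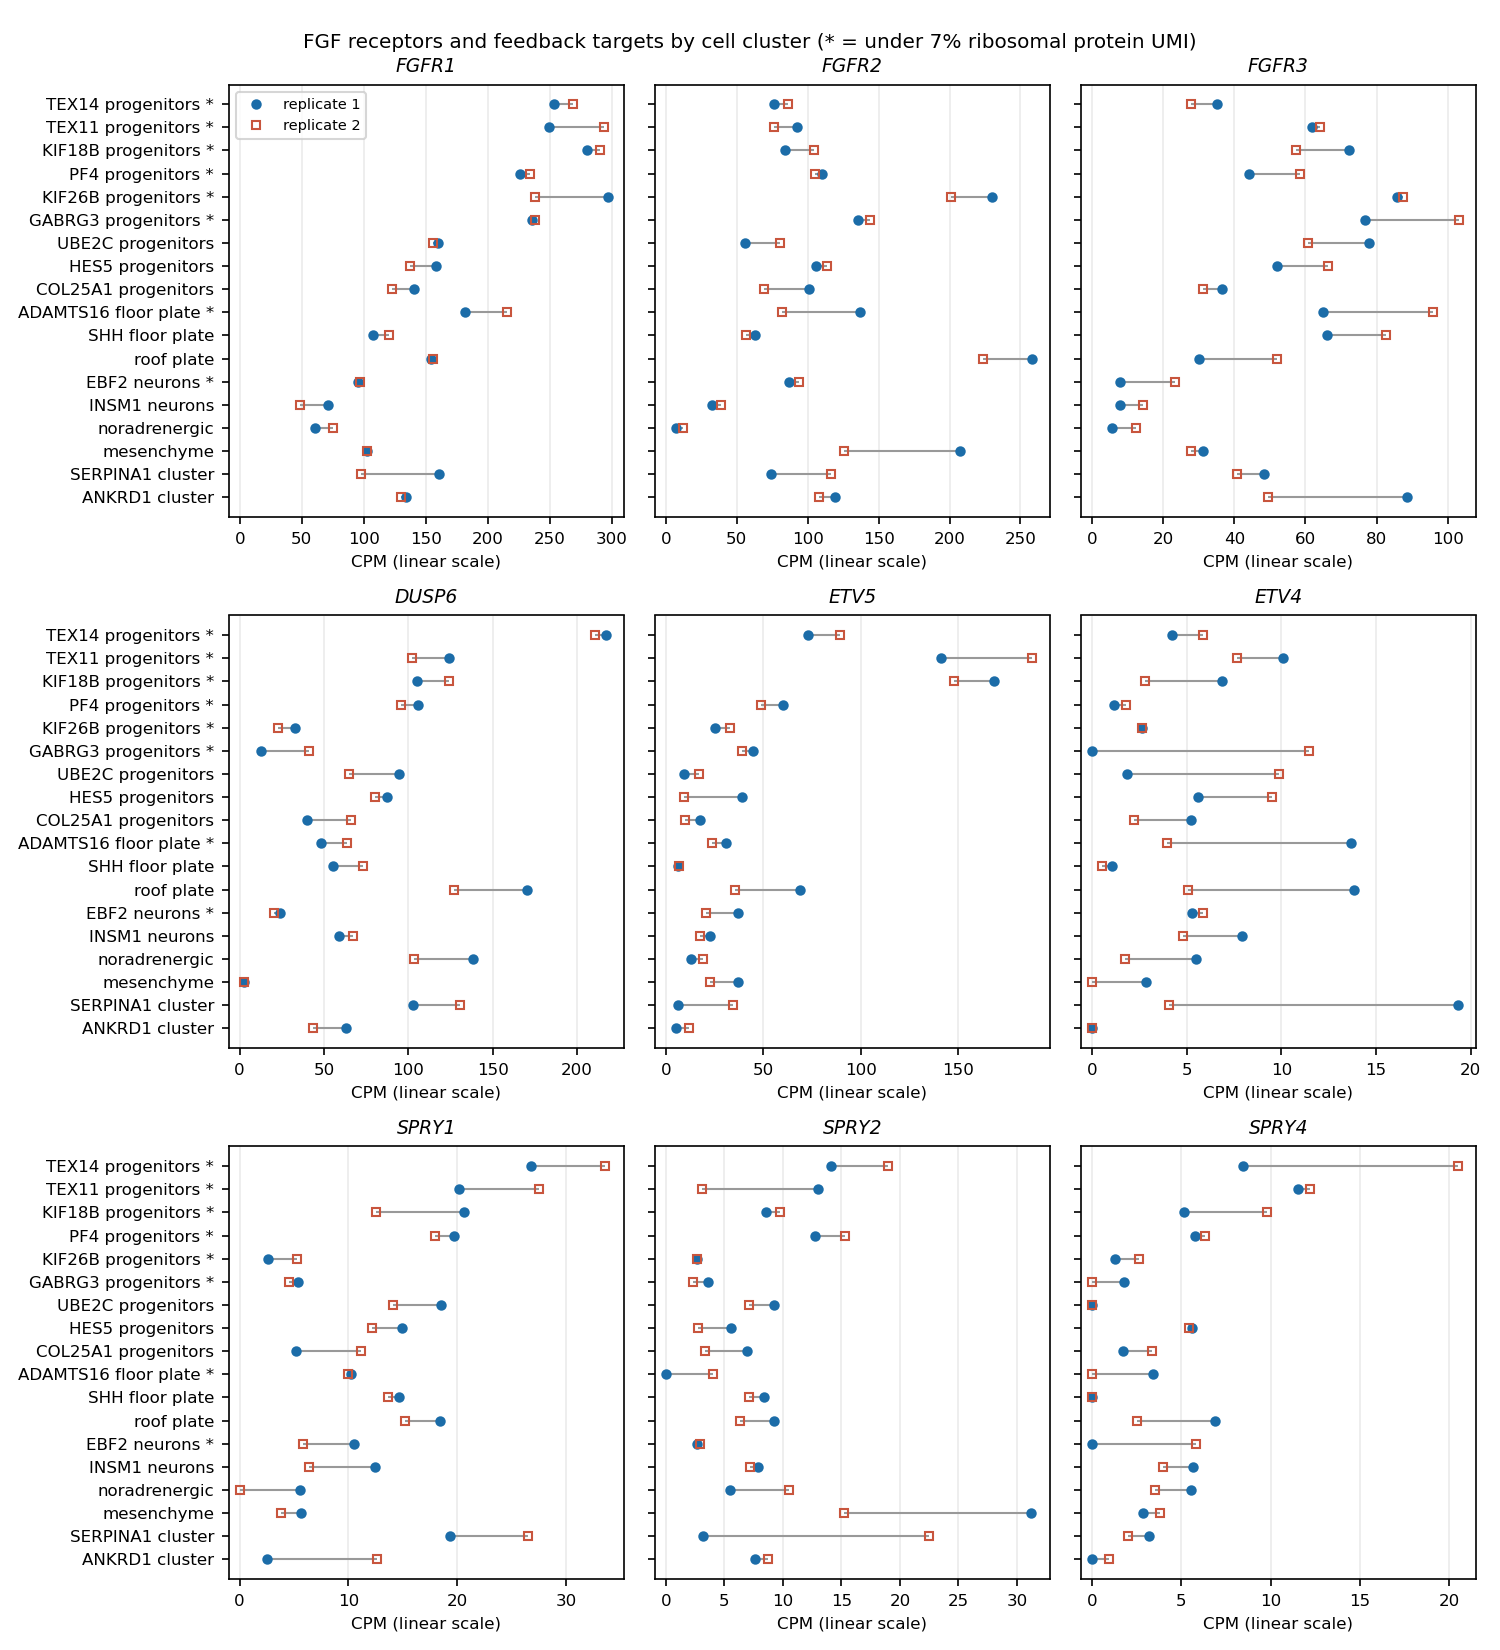
Level of each receptor and feedback target in CPM (linear scale) in the 18 clusters, filled circles for replicate 1 and open squares for replicate 2, with a line joining the libraries. FGFR1 is lowest in the INSM1 and noradrenergic neurons, FGFR2 is highest in the roof plate, and DUSP6 is highest in the TEX14 progenitors and close to 0 in the mesenchyme-like cluster.

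DUSP6 was highest in a progenitor-like cluster and lowest in the mesenchyme-like one, and 13 of the 17 neighbouring pairs in its order overlapped. The TEX14 progenitors had 217 and 211 CPM (214 ± 4.49, SD, n = 2), above every other cluster in both libraries. This separation is one of CPM only, since the fitted differences of the TEX14, roof plate and SERPINA1 clusters lay close together (1.504, 1.38 and 1.35). The roof plate had 171 and 127 CPM, the noradrenergic neurons 138 and 103 CPM and the SERPINA1 cluster 103 and 131 CPM of DUSP6, and the last of these overlapped with the KIF18B and TEX11 progenitors. At the low end were the KIF26B progenitors with 33.0 and 22.5 CPM, the GABRG3 progenitors with 12.5 and 41.2 CPM and the EBF2 neurons with 23.7 and 20.5 CPM. The mesenchyme-like cluster had 2.84 and 2.54 CPM of DUSP6, from 1 and 2 UMI in 35 and 72 cells, and lay below all other clusters in both libraries.

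Set against the mean of the other clusters, DUSP6 was higher in 9 and lower in 4 of the 18 clusters. The differences were 1.504 in the TEX14 progenitors (SE 0.15, adjusted p 1.7e-13), 1.38 in the roof plate (adjusted p 1.4e-09), 1.35 in the SERPINA1 cluster (adjusted p 1.5e-07) and 1.12 in the noradrenergic neurons (adjusted p 5.4e-07). They were -4.01 in the mesenchyme-like cluster (SE 0.51, adjusted p 2.6e-10), -1.52 in the EBF2 neurons, -1.43 in the GABRG3 progenitors and -1.24 in the KIF26B progenitors. The rises of 0.40 in the SHH floor plate and 0.51 in the HES5 progenitors lost their call against clusters of like share (0.29 and 0.40, adjusted p 0.30 and 0.20) and under limma-trend. Early-response and heat-shock genes, some of which are also induced through ERK or by dissociation, summed to 4470 and 4167 CPM in the TEX14 progenitors. In the PF4, TEX11 and KIF18B progenitors they summed to 3399 and 3574, 2398 and 2314, and 2101 and 2315 CPM. The KIF26B progenitors had 923 and 970 CPM of them and the GABRG3 progenitors 782 and 653 CPM. In the mesenchyme-like cluster, where DUSP6 was lowest, these genes summed to 9725 and 10616 CPM. Their part in the DUSP6 differences was not tested.

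The Sprouty transcripts were scarce, with 332 UMI of SPRY1, 217 of SPRY2 and 104 of SPRY4 in all analysed cells. By CPM SPRY1 was highest in the TEX14 progenitors with 26.8 and 33.6 CPM, followed by the TEX11 progenitors with 20.2 and 27.5 CPM and the SERPINA1 cluster with 19.3 and 26.5 CPM. These 3 clusters overlapped, and by fitted difference the SERPINA1 cluster, a group of mixed markers, came first. SPRY1 was higher in all 3 against the mean of the others (1.12, 0.76 and 1.49; adjusted p 0.0012, 0.045 and 0.0032) and lower in the noradrenergic neurons (-1.99, adjusted p 0.012, from 3 and 0 UMI) and in the KIF26B progenitors (-1.55, adjusted p 0.011). The call in the TEX11 progenitors was lost in 4 alternatives, with adjusted p from 0.053 to 0.15.

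SPRY2 differed in where it peaked. The mesenchyme-like cluster had 31.2 and 15.2 CPM of SPRY2 from 11 and 12 UMI, and it was higher there than in the mean of the others (2.36, SE 0.45, adjusted p 8.1e-06). In the same cells DUSP6 was lowest and SPRY1 had 5.68 and 3.81 CPM, so the inhibitors did not share 1 order of clusters. SPRY2 was also called in the SERPINA1 cluster (1.43, adjusted p 0.032), but the libraries there had 3.22 and 22.5 CPM, and in replicate 1 alone the difference was -0.54. SPRY4 and ETV4 were too scarce to pass the filter on low counts and have values only. SPRY4 was highest in the TEX14 progenitors with 8.45 and 20.5 CPM and in the TEX11 progenitors with 11.5 and 12.2 CPM. It had 0 UMI in the SHH floor plate, which allows up to 1.08 CPM (3 counts over the UMI of both libraries), and 0 UMI in the UBE2C progenitors, which allows up to 2.41 CPM.

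ETV5, an ETS factor induced by FGF signalling, was concentrated in 3 progenitor-like clusters. The TEX11 progenitors had 141 and 188 CPM of ETV5 (165 ± 33.1, SD, n = 2) and the KIF18B progenitors 168 and 148 CPM, which overlapped. The TEX14 progenitors followed with 73.2 and 89.2 CPM, below both and above the rest. The SHH floor plate had 6.28 and 6.57 CPM and the ANKRD1 cluster 5.06 and 11.7 CPM. ETV5 was among the 10 leading genes of the TEX11 cluster although it had been left out of the clustering. Its log2 fold changes were 2.19 in both the TEX11 (SE 0.19, adjusted p 6.5e-15) and the KIF18B progenitors (SE 0.19, adjusted p 9.1e-15), 1.11 in the TEX14 progenitors (adjusted p 2.0e-05) and -2.02 in the SHH floor plate (adjusted p 2.0e-06).

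Of these ETV5 calls 4 of 9 held against clusters of like ribosomal share: TEX11 and KIF18B (both 1.54), the roof plate (1.48; 0.80 against all clusters) and the SHH floor plate (-1.48). The TEX14 difference was 0.37 there (adjusted p 0.18), and the PF4 difference went from 0.57 to -0.21 (adjusted p 0.56). ETV4, its close relative, stayed at or below 19.3 CPM in every cluster and library. ETV4 was highest in the SERPINA1 cluster with 19.3 and 4.08 CPM from 6 and 2 UMI, a spread that leaves no order among most clusters, and it had 0 UMI in the ANKRD1 cluster, which allows up to 2.11 CPM.

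DUSP6 and ETV5 did not peak together. In the TEX14 progenitors DUSP6 stood at its maximum in CPM while ETV5 had 73.2 and 89.2 CPM. The TEX11 and KIF18B progenitors had the maximum of ETV5 and 102 to 124 CPM of DUSP6. The noradrenergic neurons had 138 and 103 CPM of DUSP6 but 12.9 and 19.3 CPM of ETV5, and the mesenchyme-like cluster had 36.9 and 22.8 CPM of ETV5 beside its near absence of DUSP6. Over the 36 sums of cluster and library the correlation of the log2 levels of DUSP6 and ETV5 was 0.19, and it was 0.68 over the 16 ribosome-poor sums and -0.09 over the 20 others. These sums share libraries and depth and the values are a description.

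Feedback transcripts were next set against receptor transcripts within each cluster, which removes the cluster's total UMI from the comparison. The noradrenergic neurons had 235 and 139 target UMI (the 6 feedback genes together) per 100 receptor UMI, the INSM1 neurons 103 and 105, and the TEX14 progenitors 94.2 and 98.9. The TEX11 progenitors had 79.3 and 78.5 and the KIF18B progenitors 72.0 and 67.9. At the other end stood the KIF26B progenitors with 10.99 and 13.1, the GABRG3 progenitors with 15.1 and 20.3 and the mesenchyme-like cluster with 24.2 and 18.8.

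High ratios arose in different ways. In both neuron clusters at the top the receptor sum was the lowest of all clusters, at 73.6 and 99.9 CPM in the noradrenergic and 112 and 102 CPM in the INSM1 neurons. Their target sums differed, with 173 and 139 CPM in the noradrenergic and 115 and 107 CPM in the INSM1 neurons. In the TEX14 progenitors the target sum was the highest, at 344 and 379 CPM, with a receptor sum of 365 and 383 CPM. The KIF26B progenitors had the largest receptor sum, 613 and 527 CPM, and 67.3 and 68.8 CPM of targets. Both TEX14 and KIF26B clusters were ribosome-poor, at 3.005% and 2.75% and at 3.39% and 3.74% of UMI, so this contrast was present at like ribosomal share. The same clusters differed in early-response and heat-shock genes, with 4470 and 4167 CPM in TEX14 and 923 and 970 CPM in KIF26B. The part of these genes in the contrast was not tested. Over all cells together most target UMI were DUSP6 and ETV5. This did not hold in the mesenchyme-like cluster in replicate 1, which had 29 target UMI.

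**Figure D2:**
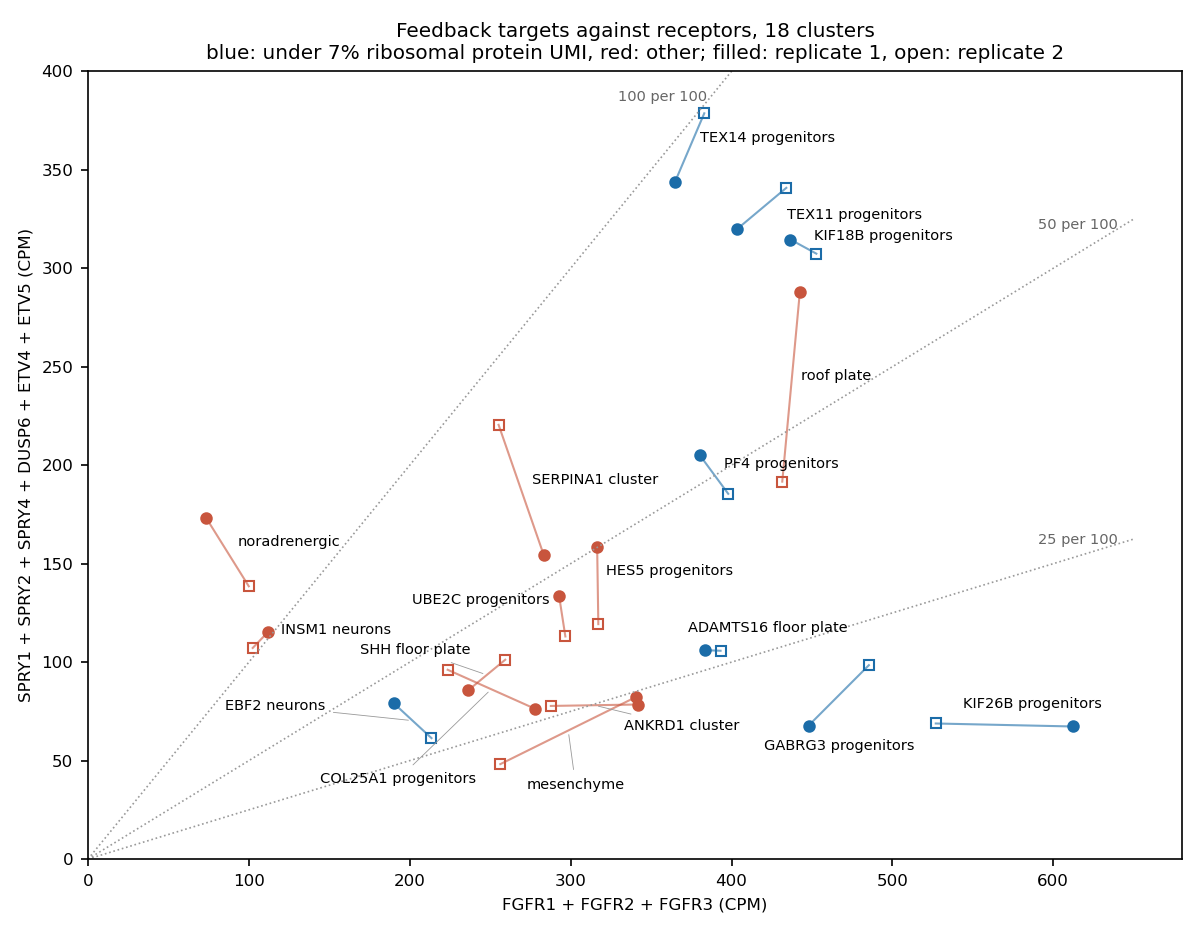
Summed CPM of the 6 feedback targets (vertical axis) against summed CPM of the 3 receptors (horizontal axis) in the 18 clusters, both linear, with a line joining replicate 1 (filled) and replicate 2 (open) and dotted lines at 25, 50 and 100 target UMI per 100 receptor UMI. The KIF26B and GABRG3 progenitors lie far right and low, the TEX14, TEX11 and KIF18B progenitors at the top, and the noradrenergic neurons at the left above the line of 100.

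A single test across the 18 clusters asked whether a gene differed in any of them. All 7 members that passed the filter on low counts did so, with adjusted p from 1.5e-22 for FGFR2 to 5.3e-04 for SPRY2, but 94.9% of all genes tested were called as well (94.7% of the genes left out of the clustering). The count is therefore no result about these genes. In the 126 pairs of a member and a cluster, 36 were higher and 21 lower than the mean of the other clusters, or 28.6% and 16.7%, against 24.7% and 16.5% of pairs over all genes. Shares this near the background do not set the members apart. Of the 57 called pairs 56 had the same direction in each library alone, the exception being SPRY2 in the SERPINA1 cluster, and 44 kept their call and direction against clusters of like ribosomal share. With library as a term, the p-values of this fit rest on how far differences between clusters varied between the 2 libraries. The fit had 17 residual degrees of freedom, moderated by a median of 51.6 shared across genes. Variation from embryo to embryo may not be captured.

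The step from progenitor to neuron was then tested on the summed counts of the 9 neural progenitor-like clusters (1102 and 1260 cells) and the 2 neuron-like clusters (214 and 246 cells). These sums entered a separate fit of 6 classes, again with library as a term, which had only 5 residual degrees of freedom. All 3 receptors were lower in neuron-like cells. FGFR1 had 78.4 and 59.1 CPM in neuron-like and 227 and 216 CPM in progenitor-like cells, FGFR2 had 49.1 and 50.9 against 113 and 107 CPM, and FGFR3 had 7.92 and 16.3 against 59.6 and 59.4 CPM. The classes did not overlap for any receptor. The log2 fold changes were -1.47 for FGFR1 (SE 0.15, adjusted p 3.0e-13), -0.89 for FGFR2 (SE 0.17, adjusted p 7.1e-06) and -2.02 for FGFR3 (SE 0.25, adjusted p 8.4e-11).

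Among the targets ETV5 had 26.9 and 18.2 CPM in neuron-like and 65.3 and 61.8 CPM in progenitor-like cells (-1.28, SE 0.22, adjusted p 6.5e-07). DUSP6 had 48.3 and 57.2 against 93.7 and 90.3 CPM (-0.55, SE 0.17, adjusted p 0.0047). For DUSP6 the difference was -0.35 without replicate 1 and -0.65 without replicate 2. The noradrenergic neurons were a class of their own and not part of this comparison. In them DUSP6 was higher than in the mean of the other clusters (1.12, adjusted p 5.4e-07, edgeR), so its lower level holds for the 2 neuron-like clusters only. SPRY1 had 11.9 and 6.28 against 15.1 and 15.7 CPM (-0.57, SE 0.36, adjusted p 0.17) and SPRY2 6.33 and 6.28 against 8.76 and 7.77 CPM (-0.14, SE 0.43, adjusted p 0.80), and neither passed the test. SPRY4 had 3.96 and 4.40 against 4.81 and 6.72 CPM and ETV4 7.13 and 5.03 against 4.12 and 5.38 CPM, on 5 to 9 UMI per library in neuron-like cells. In all 5 of 7 tested members were lower and 0 higher, where 29.9% of all genes were lower and 27.1% higher (30% and 28.1% of genes left out of the clustering). By edgeR 0 members were higher at an unadjusted p under 0.05, and 0 were higher by DESeq2 or limma-trend. The median log2 fold change of the 7 members was -0.89 and that of all genes -0.04.

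The neuron-like cells were of both ribosomal kinds, EBF2 neurons poor and INSM1 neurons rich, so the step was also taken within each kind. Among ribosome-poor clusters 4 of 7 members were lower and 0 higher (21% and 20.1% of all genes), and among ribosome-rich clusters 3 were lower and 0 higher (20.3% and 23.7%). FGFR1 (-1.16 in ribosome-poor and -1.31 in ribosome-rich clusters) and FGFR3 (-1.71 and -2.14) were lower in both. FGFR2 was lower among ribosome-rich clusters (-1.24, adjusted p 2.0e-06; -0.055, adjusted p 0.88, among the poor), and the difference between the kinds was itself called (1.18, SE 0.32, adjusted p 0.0051). DUSP6 had the reverse order, -1.5003 among the poor (adjusted p 2.4e-04) and -0.17 among the rich (adjusted p 0.53), again with a called difference (-1.33, SE 0.41, adjusted p 0.018). ETV5 was lower among the poor (-1.03, adjusted p 0.016) and 0.31 among the rich (adjusted p 0.51), and the difference between them did not pass (-1.35, adjusted p 0.063). Over all genes 15.9% had a called difference between the kinds. Each kind holds 1 neuron cluster and its own progenitor clusters, so ribosomal share, neuron type and progenitor type cannot be told apart here. Against the mean of the other clusters ETV5 was called in neither neuron cluster (-0.028 in the EBF2 and -0.55 in the INSM1 neurons).

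**Figure D3:**
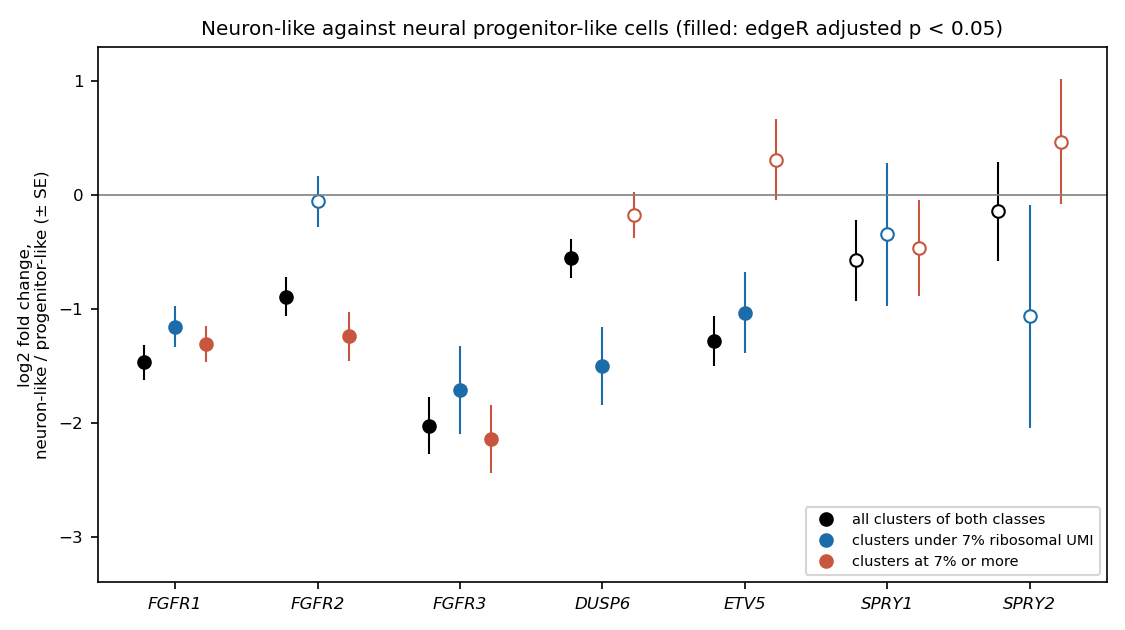
Log2 fold change (± SE) of neuron-like against progenitor-like cells for the 7 tested members, over all clusters of both classes (black) and within ribosome-poor (blue) and ribosome-rich (red) clusters, filled where the edgeR adjusted p was under 0.05. FGFR1 and FGFR3 are filled in all 3 fits, FGFR2 in the fits with ribosome-rich clusters, and DUSP6 and ETV5 in the fits with ribosome-poor clusters.

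Without clusters, cells were also taken as progenitors if they had SOX2 and no ELAVL3, ELAVL4, DCX or STMN2 UMI, and as neurons if they had at least 3 UMI of these genes and no SOX2. The receptors were again lower in the neurons (FGFR1 -0.74, FGFR2 -0.56 and FGFR3 -1.13). DUSP6 (-0.057, adjusted p 0.76) and ETV5 (-0.41, adjusted p 0.092) then missed the threshold, which leaves 3 of 7 members lower. This gate drew on cells of all clusters and not only of the named classes. The DUSP6 difference between the named classes also missed the threshold by DESeq2 (adjusted p 0.13) and limma-trend (adjusted p 0.10).

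The surrounding pathway was followed with a list of 78 further genes in the table, of which 56 were tested between the classes. In neuron-like cells 13 were higher and 20 lower, and 23 were not called, with a median log2 fold change of -0.15. Over all genes 27.1% were higher and 29.9% lower, so that these counts lie near the background, and the counts by role below are descriptions. The feedback group (other inhibitors and targets) had 8 of 13 lower and 1 higher. Among them were DUSP5, a nuclear ERK phosphatase, with 7.92 and 8.17 against 49.1 and 39.1 CPM (-2.20), EGR1, an immediate early transcription factor, with 1.58 and 8.79 against 31.3 and 29.4 CPM (-2.18), and SPRED1, an inhibitor of RAS signalling (-0.96). The gene that was higher was SPRED3 (1.33), a relative of SPRED1. The intracellular FGF homologous factors, which resemble FGFs but bind sodium channels and do not signal through FGF receptors, were all higher (3 of 3), led by FGF14 with 1346 and 895 against 124 and 101 CPM (3.53).

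Of 16 genes of heparan sulfate and ligand release, 6 were lower and 2 higher. GPC4, a heparan sulfate proteoglycan, had 21.4 and 9.42 against 119 and 112 CPM (-2.72). Of 4 ligands 2 were lower, FGF19 with 4.75 and 18.2 against 57.7 and 47.0 CPM (-1.85) and FGF2 (-1.02), and FGF1 was higher (1.82). Of 4 receptors and co-receptors only KLB, the co-receptor through which FGF19 acts in liver, was called, with 3.96 and 1.88 against 22.5 and 18.4 CPM (-2.59). Of 16 genes of the signal relay 6 were higher, among them MAPK3 (1.60) and HRAS (1.07), and 3 lower, among them FRS2, the adaptor of FGF receptors (-0.70), and MAP2K1 (-0.68). By the marker gate FGF19 stood at 0.14 (adjusted p 0.61). Without replicate 1 the difference was -1.35 for EGR1 and -1.03 for FGF19, and without replicate 2 it was -3.37 and -3.07. KLB and DUSP5 rested on the ribosome-poor clusters: among the ribosome-rich they stood at 0.83 (adjusted p 0.40) and 0.63 (adjusted p 0.29).

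Other genes of the list were called higher in single clusters. In the TEX14 progenitors DUSP5 had 194 and 173 CPM (log2 fold change against the mean of the others 3.59), KLB 56.3 and 57.0 CPM (3.63), DUSP4 49.3 and 51.2 CPM (2.18) and FGF19 103 and 111 CPM (2.15). KLB, DUSP4 and FGF19 were likewise higher in the TEX11 (2.71, 2.34 and 1.87) and KIF18B progenitors (2.82, 2.13 and 1.87). The PF4 progenitors had KLB (2.89), DUSP5 (2.00) and DUSP4 (1.34) but not FGF19 among their leading pathway genes. In the KIF26B and GABRG3 progenitors, with high receptors and low targets, the leading pathway genes included HS6ST2, a heparan sulfate sulfotransferase (2.48 and 2.76), and GPC6, a glypican (2.19 and 2.43). In the KIF26B cluster SULF1 (1.84), EXT1 (1.58), FGF12 (1.48) and the feedback inhibitor SPRED2 (1.26) were also among them, and in the GABRG3 cluster FGF14 (2.23), the ETS factor ETV1 (1.95), GPC3 (1.80) and GPC4 (1.69).

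The roof plate had SULF1, an enzyme that trims heparan sulfate, at 422 and 369 CPM (2.87) and ETV1, an ETS factor related to ETV4 and ETV5, at 69.1 and 68.5 CPM (1.66). The noradrenergic neurons had FGF1 at 58.9 and 26.3 CPM (4.05) and CCND1, a cyclin, at 964 and 1006 CPM (3.67) beside their low receptors. The mesenchyme-like cluster had GPC3 (5.93), IER3 (5.16), FOS (3.83) and EGR1 (3.60) among its leading pathway genes, beside the highest summed level of early-response and heat-shock genes of the 18 clusters (9725 and 10616 CPM, at most 4470 CPM in the others). FOS and EGR1 are early-response genes themselves, and the part of dissociation in their level was not tested. In the ADAMTS16 floor plate FGF10 (2.40, at 24.0 and 33.9 CPM) and FGF2 (1.04), both ligands, were higher. FGF10 was also higher in the SERPINA1 cluster (3.01, at 41.8 and 28.6 CPM). FGF8 and FGF17, ligands known from brain organizers and the tail bud, had 7 UMI and 2 UMI in the 18 clusters.

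Depth differed between clusters, so shares of positive cells were taken after each cell had been thinned to 2000 UMI, which left out 190 and 215 shallower cells. DUSP6 was then seen in 30.4% (exact 95% interval 23.4 to 38.2) and 33.1% (25.7 to 41.2) of TEX14 progenitors, in 20.8% and 23.2% of noradrenergic neurons and in 2.08% and 7.87% of GABRG3 progenitors. ETV5 was seen in 25.6% and 27.1% of TEX11 progenitors, 28.9% and 24.1% of KIF18B progenitors and 1.05% and 1.05% of cells of the SHH floor plate. FGFR1 was seen in 44.1% and 35.5% of KIF26B progenitors and in 14.6% and 12.9% of INSM1 neurons. Before thinning DUSP6 was seen in 48.2% and 50.5% of TEX14 and 3.82% and 11.6% of GABRG3 progenitors.

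Erythroid-like cells, which should lack these genes, served as background for free RNA. They numbered 9 and 21 with a median depth of 25821.5 UMI, and after thinning 0 of 9 and 0 of 20 had DUSP6 or ETV5, which allows shares of up to 33.3% and 15.0%. FGFR1 was in 1 of 9 and 0 of 20. At full depth ETV5 was in 11.1% and 14.3% of erythroid-like cells and DUSP6 in 0% and 4.76%. As a level over both libraries DUSP6 had 1.302 CPM in erythroid-like cells (exact Poisson 95% interval 0.033 to 7.25) and 25.1 CPM in GABRG3 progenitors (16.2 to 37.0). The same amount of free RNA gives a lower CPM in deeper cells, and the median depths were 25821.5 and 3046.5 UMI. These levels therefore cannot place DUSP6 in the GABRG3 progenitors above background. ETV5 had 5.21 CPM in erythroid-like cells (1.42 to 13.3) and 6.47 CPM in the SHH floor plate (3.83 to 10.2), so that its level there was not above this background. Embryonic globins and other erythroid markers summed to 472 to 1557 CPM in the 18 clusters, so erythroid transcripts were found outside erythroid-like cells in both libraries. TEX14 and GABRG3 progenitors had similar median depths of 3346 and 3046.5 UMI, and their thinned DUSP6 intervals did not overlap (0.253 to 7.32 and 3.22 to 15.5 in GABRG3 progenitors).

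**Figure D4:**
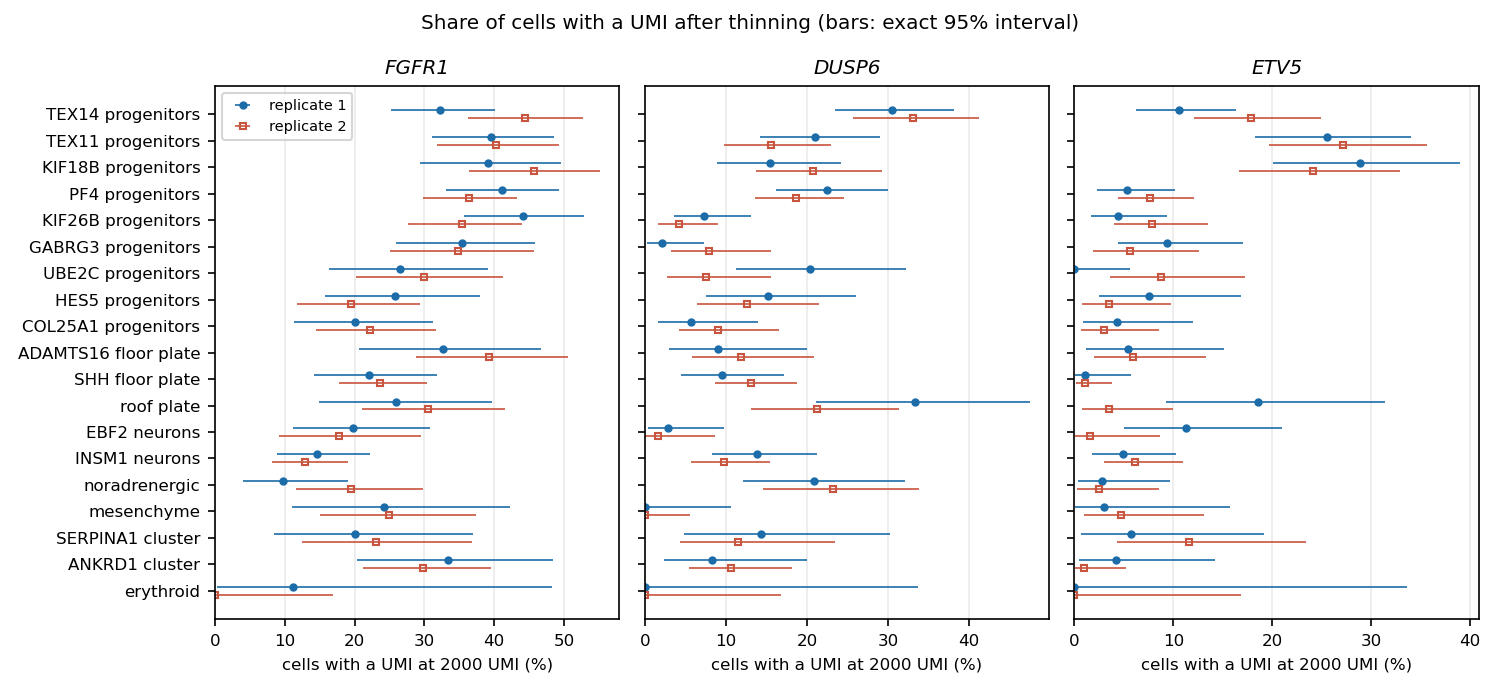
Share of cells (%) with a UMI of FGFR1, DUSP6 and ETV5 after thinning to 2000 UMI in the 18 clusters and in erythroid-like cells, for replicate 1 (circles) and replicate 2 (squares) with exact 95% intervals, which cover counting error only. DUSP6 is most frequent in the TEX14 progenitors and the roof plate, and ETV5 in the TEX11 and KIF18B progenitors.

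For each member the genes of most similar pattern were found by the correlation of log2(CPM + 1) over the 36 sums among 7828 genes. For FGFR1 they were ATAD2 (r = 0.94) and SMAD6 (0.92), for FGFR2 FREM1 (0.90) and GLI3 (0.86), and for FGFR3 HELLS (0.90) and GYG2 (0.87). For DUSP6 they were RBBP4 (0.87) and ITGAE (0.87) and for ETV5 ELL2 (0.88) and TGFBR1 (0.87). Among the scarcer genes they were POLR1C (0.80) and DDIT4 (0.76) for SPRY1, JUNB (0.76) and PNRC1 (0.75) for SPRY2, MRPS36 (0.77) and KLHL18 (0.76) for SPRY4, and SSH1 (0.57) and HES5 (0.52) for ETV4. None of the 18 was in the pathway list. The sums share libraries, depth and ribosomal share, and the values are descriptions.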

How the data were processed

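The authors deposited raw UMI counts per gene and barcode; Cell Ranger (no version given), R 4.1.2, Seurat 4.3.0 and the build bosTau9 are named per the submitters' processing notes. Per the labels' protocols, sorted cells from papain dissociation went onto 10x Chromium 3′ v3.1. The prefix of a column gave its library, and 0 other columns were present. The members, the lists and the tests were chosen with earlier results of these data known.

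Cell filters were 500 genes, 1000 UMI (both minimums) and 15% mitochondrial counts (maximum). Scrublet removed 0.168% as doublets, so doublets remain possible. Clustering (scanpy 1.11.5, 2000 variable genes, 30 components, 15 neighbours, Leiden at 1.0, no integration) left out 8908 genes: the members, the FGF lists, GFP and a random 50% of genes that mark no cell type. The cells being the same, differences between clusters were likely for any gene. Naming needed at least 3 markers, each at 20 CPM or more and 25% of its maximum, a rule set after clusters were seen. The ribosomal limit of 7% was also set after seeing the data.

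Sums of counts by cluster or class and by library entered edgeR 4.0.16 under R 4.3.3 (TMM, filterByExpr, quasi-likelihood F test, library as a term) on all genes, with Benjamini-Hochberg adjustment and a threshold of 0.05. Fits were tested on simulated data with rises in 1 cluster, the TEX14 or the noradrenergic one. Of 100 rises of 2-fold 78 and 74 were recovered, and of 100 rises of 4-fold 99 and 100. False calls numbered 16 and 7. limma 3.58.1 and DESeq2 1.42.0 were alternatives. CPM scales a gene's counts to the usual common total; log2 correlations used a pseudocount of 1. Members are always named; of the FGF lists, up to 6 genes per test are named by absolute fold if the adjusted p was under 0.05 and the higher arm reached 20 CPM, and others serve as examples of a group's count. Genes of like pattern needed a mean of 20 CPM. No coordinates or sequences were used. The value of 1 gene of the signal relay list is not reported here.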

Additional observations from a re-analysis of the deposited data

How the results depend on the processing

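The number of members called among clusters was 7 in every fit with the filter on low counts, Leiden resolutions of 0.6 and 1.5 (11 and 20 clusters) included (of 8 tested at 1.5), and 9 without it. The fits by ribosomal share and those without ribosomal protein genes were chosen after seeing the data. Without the library term (no replicate block) 37 pairs were higher and 21 lower, 5 of 7 members were lower in neuron-like cells, and 12 pathway genes were higher and 20 lower, so leaving out the block took away no call of a named gene or pair. Each cluster was summed within each library, so sums of different clusters are matched by library, and no other pairing was checked. The members lower in neuron-like cells were 3 by the marker gate and 3 among ribosome-rich clusters. By limma-trend 7 pathway genes were higher and 12 lower. Those lower were 13 by the marker gate (of 59 tested), 13 among ribosome-poor and 12 among ribosome-rich clusters (of 58 each). Among ribosome-rich clusters ETV5 (0.31), SPRY2 (0.47), KLB (0.83) and DUSP5 (0.63) changed sign, and by the marker gate FGF19 did (0.14). Against clusters of like ribosomal share ETV5 (-0.21) and FGFR1 (-0.058) in the PF4 progenitors changed sign. The causes were not tested. Leaving out each library in turn gave log2 fold changes in neuron-like cells of -1.56 to -1.23 for FGFR1, -0.90 to -0.76 for FGFR2, -2.48 to -1.51 for FGFR3, -0.65 to -0.35 for DUSP6 and -1.41 to -0.96 for ETV5. It gave 1.72 without replicate 1 and -0.54 without replicate 2 for SPRY2 in the SERPINA1 cluster. DESeq2's size factors moved the median of all genes from -0.04 to 0.05 and reversed no member. SPRY2, SPRY4 and ETV4, with 104 to 217 UMI in all cells, are limited by depth.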

Other observations

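Clusters too small or too uneven between libraries for the tests also held receptor transcripts. The ionocyte-like cells (16 and 11; FOXI1, ATP6V1B1, SLC4A9) had 113 and 42.4 CPM of FGFR2 from 9 and 3 UMI, beside 2 and 2 UMI of FGFR1 and 2 and 1 UMI of FGFR3. The trophoblast-like cells (7 and 10) had 4 and 2 UMI of FGFR2, 5 and 1 UMI of DUSP6 and 0 UMI of ETV5. An unnamed cluster of 67 cells, all of replicate 2, had 126 CPM of FGFR1, 106 CPM of FGFR2 and 48.7 CPM of DUSP6. Another of 65 and 3 cells had 122 CPM of FGFR1 in replicate 1 and 13.1 CPM of DUSP6 from 3 UMI.

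Within clusters the targets were not clearly found in the same cells. Among TEX14 progenitors thinned to 2000 UMI, ETV5 was seen in 16.3% of 49 cells with DUSP6 and 8.04% of 112 without it in replicate 1, and in 9 of 50 and 18 of 101 cells in replicate 2. Among TEX11 progenitors it was seen in 29.6% of 27 and 24.5% of 102 cells, and in 35.0% of 20 and 25.7% of 109. The exact 95% intervals of all 4 pairs overlapped, which does not show that the shares are alike. Between members, the correlation of log2 levels over the 36 sums was 0.71 for FGFR1 and FGFR3 and 0.62 for SPRY4 and ETV5. For SPRY1 and DUSP6 it was 0.50, with 0.85 over ribosome-poor and 0.30 over ribosome-rich sums.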
